A study of Mus musculus with 8 samples.

Results

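The genes described here are 10 that mark immature or injured Schwann cells or hold back myelination: Jun, Sox2, Id2, Runx2, Ngfr, Ncam1, Gap43, Gfap, Tnc and Igfbp2. They were chosen by symbol, and all 10 were found among the 55487 genes of the count table. RNA from whole sciatic nerve of mice at postnatal day 6 was sequenced in 8 libraries. The 4 Ctrl libraries came from CNP+/+ Cdk7lox/lox mice. The 4 CNP-Cdk7cKO libraries came from CNPcre/+ Cdk7lox/lox mice, in which Cre takes the place of 1 Cnp allele and acts in Schwann cells. Every animal thus carried floxed Cdk7, which encodes a kinase of the cell cycle and of transcription by RNA polymerase II, and the knockout animals also had a single intact Cnp allele. Other cells of the nerve that do not express Cnp keep Cdk7. Levels are in CPM, a gene's counts scaled to the size of its library, and every fold change gives the knockout relative to the control.

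Schwann cells pass through an immature stage before they sort axons and form myelin, and after nerve injury they give up the myelin programme and take on a repair state. Jun drives that repair state, and Jun, Sox2 and Id2 oppose the transcription factor Egr2, which switches on the myelin genes. Ngfr, Ncam1, Gap43 and Gfap are surface and cytoskeletal proteins of immature, non-myelinating and repair cells, while Tnc and Igfbp2 encode secreted proteins of the matrix and of growth factor control.

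Library totals lay between 16897242 and 21527891 estimated counts. The targeted gene fell from 21.5 ± 0.70 to 11.6 ± 1.35 CPM (SD, n = 4). Xist, which marks a second X chromosome, was at 281 CPM or more in Ctrl 1 and the 4 CNP-Cdk7cKO libraries and at 0.103 CPM or less in Ctrl 2, 3 and 4, so the 5 female libraries held 1 control and every knockout, and sex was unevenly spread over the genotypes. Of 15 skeletal muscle markers 13 fell, and their summed level spanned 620 to 5915 CPM among controls, against 131 to 703 CPM among knockouts. All 7 pan-Schwann markers were detected in every library, from Sox10 at 636 to 812 CPM to Gfra3 at 0.773 to 4.29 CPM, and 5 of the 7 fell in the knockouts.

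The immature and repair genes did not move as a block. Tnc and Igfbp2, both secreted, were higher in the knockout nerves, Jun was lower, and the other 6 genes that could be tested did not pass. Gfap was too low to test. Thus 2 of 9 tested members rose and 1 fell, against 5.07% and 6.6% of all 15056 tested genes. The groups of these 3 members did not overlap, which held for 18.8% of all tested genes (9.34% higher and 9.51% lower in the knockouts). The median log2 fold change of the 9 was -0.10, beside 0.003 over all tested genes. A gene was called at an adjusted p under 0.05 in the quasi-likelihood test of edgeR, adjusted over all tested genes by the Benjamini-Hochberg method. The labels do not say that each library is a separate animal, so p-values reflect only how these libraries spread, which may be technical.

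**Figure D1:**
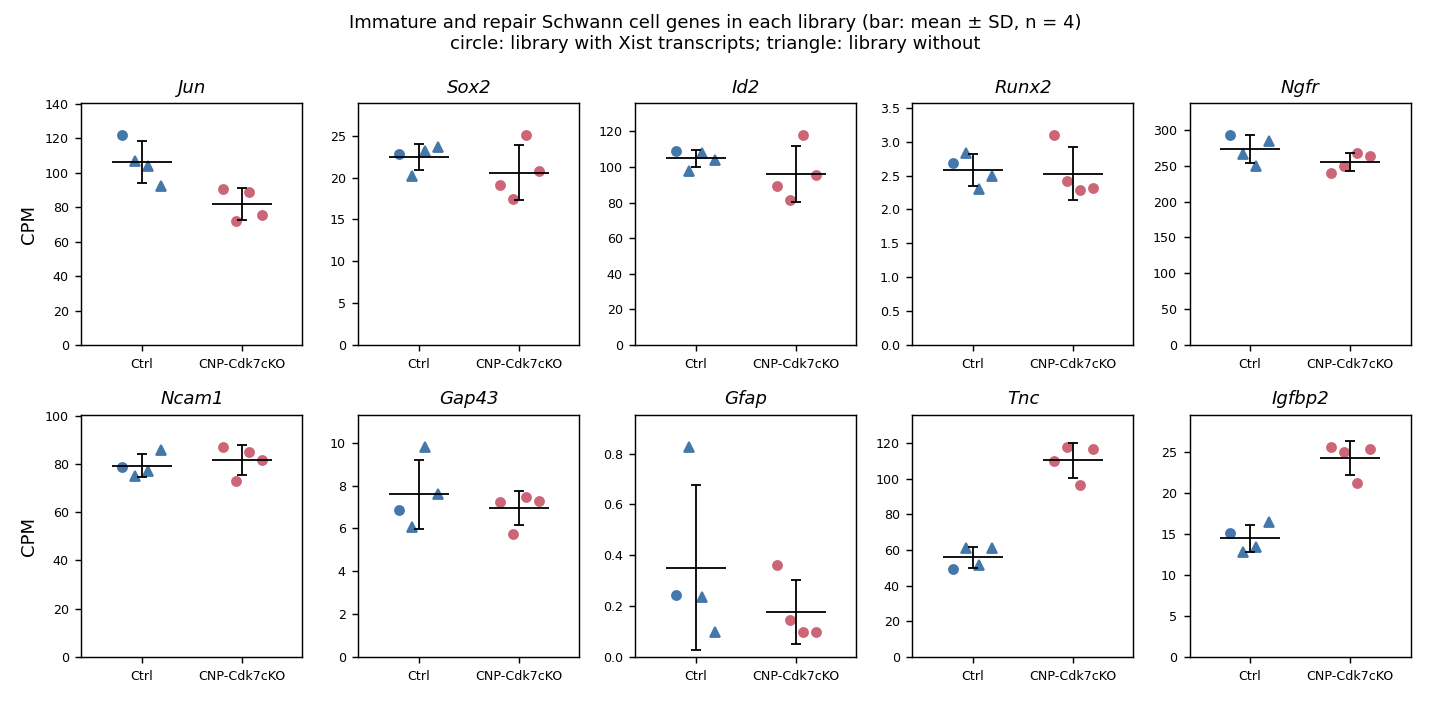
CPM of each member in each library, with axes from 0. Each point is 1 library, with Ctrl in blue, CNP-Cdk7cKO in red, circles for libraries with Xist transcripts and triangles for those without, and bars give the mean and SD of 4 libraries. Tnc and Igfbp2 are higher in every CNP-Cdk7cKO library than in any Ctrl library, Jun is lower in every one, and the groups of the other 7 genes overlap.

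The bases upstream of the start site of the 3 genes that changed are shown so that their control regions can be compared. They are RefSeq sequences of GRCm38.p6, written 5′ to 3′ along the gene's strand and ending just before the start site. Capitals mark matches on either strand to a GC box, spelled GGGCGG. They also mark a TATA box, spelled TATAAA, which places the start of transcription in some genes. The third motif marked is the AP-1 site, spelled TGANTCA. The Jun window lies at chr4:95052223-95052472 on the minus strand, that of Tnc at chr4:64047016-64047265 on the minus strand, and that of Igfbp2 at chr1:72824230-72824479 on the plus strand.
Jun: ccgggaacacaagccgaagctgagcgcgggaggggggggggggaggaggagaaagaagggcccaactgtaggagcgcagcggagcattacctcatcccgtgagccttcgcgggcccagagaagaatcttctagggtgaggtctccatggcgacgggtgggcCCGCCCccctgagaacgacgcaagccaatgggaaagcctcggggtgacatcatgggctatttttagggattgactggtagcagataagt
Tnc: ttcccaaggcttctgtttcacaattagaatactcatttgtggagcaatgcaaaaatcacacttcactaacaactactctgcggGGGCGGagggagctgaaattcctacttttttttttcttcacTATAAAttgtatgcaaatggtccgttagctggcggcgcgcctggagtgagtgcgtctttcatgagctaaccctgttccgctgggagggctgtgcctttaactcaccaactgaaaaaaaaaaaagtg
Igfbp2: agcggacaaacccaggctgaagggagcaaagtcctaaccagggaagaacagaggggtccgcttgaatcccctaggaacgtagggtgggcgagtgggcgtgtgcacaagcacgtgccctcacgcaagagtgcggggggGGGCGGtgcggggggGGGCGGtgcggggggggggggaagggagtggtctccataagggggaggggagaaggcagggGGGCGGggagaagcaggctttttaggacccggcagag

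In these windows Jun held 1 GC box, Tnc held 1 GC box and 1 TATA box, and Igfbp2 held 3 GC boxes. A GC box was found in 6 of the 8 members with a promoter in the table, and in 35.7% of all 32851 promoters of 300 bases. Here and below a member counts if any of its windows holds the motif, whereas the share of all promoters is per promoter. Tnc and Igfbp2 have 2 windows each. The windows counted also hold 50 bases after the start site, which are not printed. A TATA box was found in Tnc alone of the 8, beginning 126 bases before the start site, and in 13.6% of all promoters. An AP-1 site, the kind of sequence that Jun dimers bind, was found at a second start site of Igfbp2, 39 bases before it, and in 7.81% of all promoters. The spelling TGANTCA was in no window of the other 7 members searched, and variants of it were not searched. An E-box (CANNTG) was found in 7 of the 8 and in 72.3% of all promoters. A Runx site (TGTGGT) was found in Runx2 itself, in 3 places of which 2 overlap an E-box, and in 16.8% of all promoters. A Sox site (ACAAAG) was found in Sox2 itself and in 18.7% of all promoters. A TEAD site (GGAATG) and a cyclic AMP element were found in 0 of the 8, and in 14.7% and 1.79% of all promoters. The matches of the 3 marked motifs did not overlap one another in the printed windows, and they are descriptions of letters only.

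Among the transcription regulators, Jun was the 1 that changed. Jun (chromosome 4, 95049034 to 95052222, GRCm38, a single exon) is the AP-1 factor that Schwann cells need for the repair programme and that antagonizes myelin genes. It measured 122, 107, 104 and 92.5 CPM in Ctrl 1 to 4, against 90.8, 72.0, 88.9 and 75.6 CPM in knockout libraries 1 to 4. The groups did not overlap, but Ctrl 4 and CNP-Cdk7cKO 1 lay close together. The means were 106 ± 12 and 81.8 ± 9.42 CPM, a log2 fold change of -0.38 ± 0.09 (SE; edgeR adjusted p = 0.0248). The call was lost without Ctrl 1, Ctrl 2, Ctrl 3, CNP-Cdk7cKO 2 or CNP-Cdk7cKO 4 (adjusted p = 0.0592, 0.063, 0.0546, 0.0664 and 0.0619), among the 5 female libraries (-0.58, adjusted p = 0.0878) and with the fibroblast markers as a covariate (-0.28, adjusted p = 0.196). The fall was larger and passed when the fit held Xist, or the muscle markers, as its covariate (-0.58 and -0.67, edgeR adjusted p = 0.0461 and 0.011). The muscle covariate did not overlap between the genotypes, so its fit extends each genotype beyond its own libraries. Of 7 pan-Schwann markers 5 also fell, with a summed level of 1547 to 1722 CPM among controls, against 1313 to 1383 CPM among knockouts, and their part in the fall of Jun was not tested. In whole nerve, fewer cells of a type and less RNA per cell cannot be told apart.

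Sox2 (chromosome 3, 34650405 to 34652461), a stem cell factor that keeps Schwann cells immature, measured 22.8, 20.2, 23.2 and 23.7 CPM in Ctrl 1 to 4, against 19.1, 17.4, 25.1 and 20.8 CPM in knockout libraries 1 to 4. The highest and the lowest library were both knockouts. Its log2 fold change was -0.13, with a 95% interval of -0.33 to 0.08 from its SE (adjusted p = 0.479). Id2 (chromosome 12, 25093799 to 25097140), an inhibitor of basic helix-loop-helix factors, had the same pattern, with 109, 98.0, 108 and 104 CPM among controls, against 89.3, 81.6, 118 and 95.2 CPM among knockouts. CNP-Cdk7cKO 3 was highest of all 8 for both genes and CNP-Cdk7cKO 2 was lowest. The change of Id2 was -0.13 (-0.31 to 0.06, adjusted p = 0.433), and without CNP-Cdk7cKO 3 it was called lower (-0.24, adjusted p = 0.0453). The spread of the knockout libraries was 16.1% of the mean for both genes, against 4.92% and 2.28% from counting alone. In Ctrl the spread was 6.95% for Sox2 and 4.67% for Id2.

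Sox2 lies within an intron of the long non-coding RNA gene Sox2ot on the same strand, with 0 exonic bases in common. Sox2ot fell from 48.2 ± 3.60 to 30.3 ± 2.89 CPM, and its groups did not overlap (log2 fold change -0.67 ± 0.08, adjusted p = 0.000435). It was named after its value was seen. The difference between the changes of the host and of Sox2 was not tested.

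Runx2 (chromosome 17, 44495987 to 44814797), best known as the master factor of bone formation and also induced in injured Schwann cells, was near the lower end of what could be measured. It held 44 to 60 counts per library, 2.69, 2.84, 2.30 and 2.49 CPM in Ctrl 1 to 4, against 3.10, 2.42, 2.29 and 2.31 CPM in knockout libraries 1 to 4. The groups overlapped almost fully, and the log2 fold change of -0.03 (-0.36 to 0.30, adjusted p = 0.941) does not bound it closely. Runx2 marks bone and cartilage as well. Of 9 markers of those tissues 5 were under the count filter, and 0 of the 4 tested passed, beside 11.7% of all tested genes. So few tested markers cannot show that those tissues were unchanged.

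Neither the receptor nor the adhesion gene passed the test. Ngfr (chromosome 11, 95568818 to 95587735), the neurotrophin receptor also called p75, a mark of immature and non-myelinating Schwann cells, measured 293, 266, 249 and 284 CPM in Ctrl 1 to 4, against 240, 250, 268 and 263 CPM in knockout libraries 1 to 4. The groups overlapped, and the log2 fold change was -0.10 (-0.21 to 0.02, adjusted p = 0.326). Ncam1 (chromosome 9, 49502136 to 49798925), a cell adhesion molecule that is lost from cells as they myelinate, measured 78.8, 74.9, 77.1 and 85.9 CPM among controls, against 87.1, 73.0, 85.0 and 81.7 CPM among knockouts. Its libraries were interleaved, with a log2 fold change of 0.04 (-0.08 to 0.17, adjusted p = 0.707). For these 2 genes the data bound a change more tightly than for the other members that did not pass.

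Gap43 (chromosome 16, 42248442 to 42340651), a growth cone protein that denervated Schwann cells also make, measured 6.86, 6.05, 9.81 and 7.61 CPM in Ctrl 1 to 4, against 7.24, 5.75, 7.48 and 7.26 CPM in knockout libraries 1 to 4. Ctrl 3 was the highest, and the groups overlapped (log2 fold change -0.13, -0.44 to 0.17, adjusted p = 0.645). Gfap (chromosome 11, 102887336 to 102900912), the intermediate filament gene of non-myelinating and repair Schwann cells, had 4, 16, 5 and 2 counts in Ctrl 1 to 4 and 7, 3, 2 and 2 counts in CNP-Cdk7cKO 1 to 4. Ctrl 2 alone held more than 7, and with so few counts no difference was detectable at this depth.

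The secreted members rose. Tnc (chromosome 4, 63959785 to 64047015) encodes tenascin C, a matrix glycoprotein of developing and injured nerve. It measured 49.6, 61.1, 51.8 and 61.0 CPM in Ctrl 1 to 4, against 110, 118, 96.3 and 117 CPM in knockout libraries 1 to 4. Every knockout library was well above every control. The means were 55.9 ± 6.04 and 110 ± 10 CPM, a 1.97-fold difference (log2 fold change 0.98 ± 0.08 SE, edgeR adjusted p = 9.85e-05). It ranked 93 of 15056 tested genes from the largest rise down. The rise passed under all 18 alternatives run, with log2 fold changes between 0.93 and 1.25, and Ctrl 1, the control with Xist transcripts, was the lowest of all.

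Igfbp2 (chromosome 1, 72824503 to 72852474) encodes a binding protein of insulin-like growth factors. It measured 15.1, 12.8, 13.4 and 16.4 CPM in Ctrl 1 to 4, against 25.6, 25.0, 21.2 and 25.3 CPM in knockout libraries 1 to 4. The groups were again clearly apart, with means of 14.4 ± 1.63 and 24.3 ± 2.04 CPM and a 1.68-fold difference (log2 fold change 0.75 ± 0.09, edgeR adjusted p = 0.000727). The size held but the call was lost when Xist entered the fit as a covariate (0.71, adjusted p = 0.0594). It was also lost among the 5 female libraries, where a single control had to be taken to vary as the knockouts do (0.69, adjusted p = 0.0852).

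**Figure D2:**
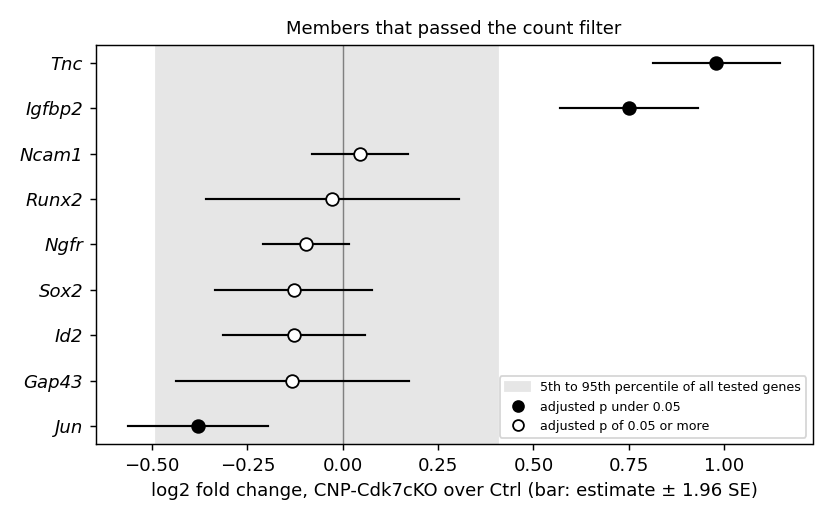
Log2 fold change of the 9 tested members, CNP-Cdk7cKO over Ctrl, with bars for the 95% interval from the SE and filled points for an adjusted p under 0.05. The shaded band holds the 5th to 95th percentile of all tested genes, and only Tnc and Igfbp2 have their estimate outside it.

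Tnc and Igfbp2 are also made by fibroblasts and other cells of the nerve sheath, so markers of those cells were read beside them. Of 10 fibroblast markers 2 rose (Pdgfra, 0.19, and Col1a1, 0.25) and 0 fell, and 0 were at 0. Their summed level was 39639 to 44993 CPM among controls, against 45441 to 51556 CPM among knockouts, which did not overlap and was mostly collagen transcripts (Col1a1 alone had means of 15705 and 18727 CPM). As a covariate, markers entered as their mean log2 CPM in each library, not as the summed level. For fibroblasts this mean was 8.80 to 8.94 among controls and 8.93 to 8.98 among knockouts, so the groups overlapped. With the fibroblast markers as a covariate, Tnc and Igfbp2 still passed (log2 fold changes of 0.93 and 0.80), and so they did with the muscle markers (1.25 and 0.95). The muscle mean was 4.76 to 7.86 among controls and 2.29 to 4.61 among knockouts, so the groups did not overlap. The muscle fit thus extends each genotype beyond its own libraries. The part of the summed fibroblast rise in the rises of Tnc and Igfbp2 was not tested. Of 8 macrophage markers 4 rose and 0 fell, with summed levels of 350 to 431 CPM among controls, against 413 to 506 CPM among knockouts, and their part in these rises was not tested. Of 6 perineurial markers 0 passed the test, and their summed levels overlapped. Of 9 mitochondrially encoded genes, read as a sign of RNA quality, 0 passed the test.

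**Figure D3:**
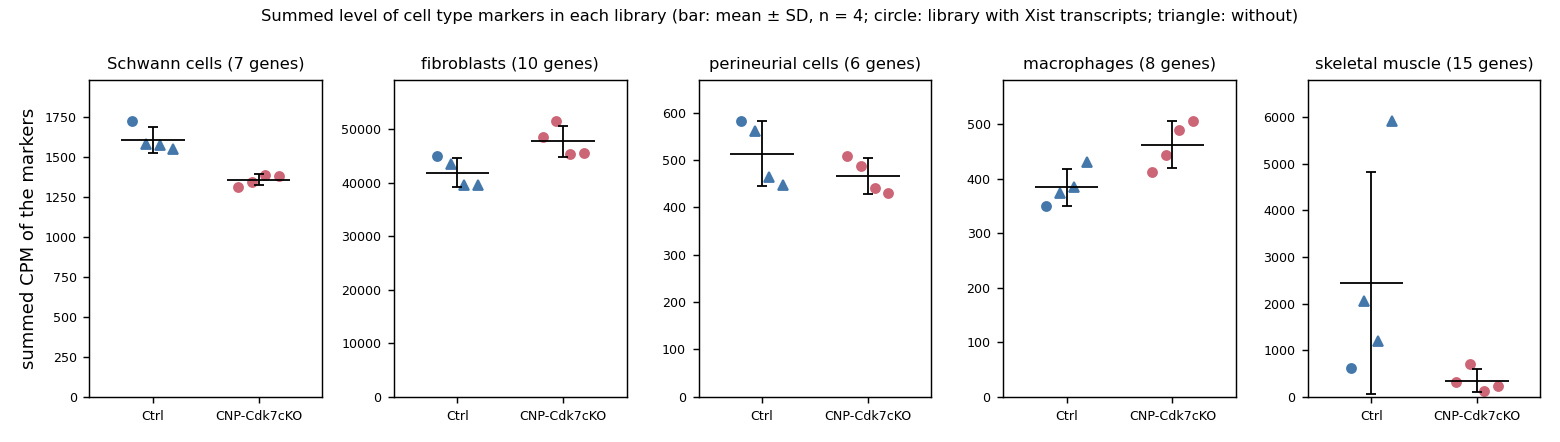
Summed CPM of the marker genes of 5 cell types in each library, with Ctrl in blue, CNP-Cdk7cKO in red, circles for libraries with Xist transcripts and triangles for those without, and bars for the mean and SD of 4 libraries. Schwann cell markers are lower and fibroblast markers higher in every CNP-Cdk7cKO library than in any Ctrl library, and skeletal muscle markers spread widely among the Ctrl libraries.

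Per kilobase of exon, Ngfr was the most abundant member in Ctrl at 79.2 CPM per kilobase, followed by Id2 (43.0) and Jun (33.4), and the library ranges of these 3 did not overlap. Sox2 (10.9), Ncam1 (9.14), Igfbp2 (7.81) and Tnc (7.19) came next, and each neighbouring pair overlapped. Gap43 (4.98) overlapped with Tnc at the edge, and Runx2 (0.29) and Gfap (0.08) were far below. In CNP-Cdk7cKO, Tnc at 12.4 to 15.2 CPM per kilobase and Igfbp2 at 11.5 to 13.9 reached or passed the range of Sox2, 8.46 to 12.2. Tnc lay wholly above that range and no longer overlapped with Gap43, while Igfbp2 overlapped with both Sox2 and Tnc.

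Because Jun, Sox2 and Id2 act against Egr2, their ratios to it were taken within each library, which does not depend on scaling. The log2 ratio of Jun to Egr2 was -1.05, -1.19, -1.45 and -1.53 in Ctrl 1 to 4 and -1.46, -1.95, -1.43 and -1.78 in CNP-Cdk7cKO 1 to 4. It was lower on average by 0.35 on the log2 scale in the knockouts, a difference within the spread of the libraries (two-sided exact permutation p = 0.143, adjusted over 3 ratios 0.429). The ratios of Sox2 and Id2 to Egr2 differed by -0.11 each (exact permutation p = 0.514 and 0.543, both 0.543 adjusted over 3 ratios). Without CNP-Cdk7cKO 3 these ratios were lower in every knockout library left (-0.24 and -0.25, exact permutation p = 0.0286 each, unadjusted). Without CNP-Cdk7cKO 2 the differences were 0.007 and 0.002. Leaving out any other library gave an exact permutation p of 0.514 or more for both ratios. The smallest p that 4 against 4 libraries allow is 0.0286. With the myelin gene Prx in place of Egr2, the Jun ratio did not overlap between the groups (-0.43, exact permutation p = 0.0286, adjusted over 3 ratios 0.0858).

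Other genes of the same biology changed in both directions. Of 40 further genes that hold back myelination or mark immature or injured Schwann cells, 33 could be tested, 6 rose and 4 fell, and their median log2 fold change was -0.002. The 6 include Nrg1, which reached the count filter only through the knockout libraries. Over all tested genes 11.7% were called in either direction. Among 10 tested negative regulators, the Notch target Hes1 rose from 14.5 ± 1.34 to 18.1 ± 1.10 CPM (0.32), and the endothelin receptor gene Ednrb fell from 236 ± 17.7 to 145 ± 28.2 CPM (-0.71). Among 8 immature markers, the cadherin genes Cdh19 (-0.81) and Cdh2 (-0.42) and the adhesion gene L1cam (-0.47) fell, and the intermediate filament gene Nes rose (0.20). Cdh19 is also 1 of the 7 pan-Schwann markers, of which 5 fell with a median log2 fold change of -0.29 over the 7, and the part of that fall in these values was not tested.

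Of 15 tested injury genes 4 rose and 0 fell, beside 5.07% and 6.6% of all tested genes. At that share, 0 falls among 15 genes says little. Nrg1, the growth factor that Schwann cells make for themselves after injury, had 6, 3, 4 and 2 counts in Ctrl 1 to 4 and 36, 31, 24 and 25 counts in CNP-Cdk7cKO 1 to 4. It reached the count filter only through the knockout libraries, so its place among the 4 is a description and its fitted fold is not given. Lif, a cytokine of the interleukin-6 family, rose from 5.45 ± 0.21 to 8.68 ± 1.07 CPM (0.67). The cell cycle inhibitor gene Cdkn2b (0.72) and the chemokine gene Ccl2 (6.60 ± 1.29 to 9.72 ± 1.44 CPM, 0.55) rose too. The call of Ccl2 lay near the threshold (edgeR adjusted p = 0.0449). That call was lost with limma-voom, with the fibroblast covariate and without Ctrl 1, Ctrl 2, Ctrl 3 or CNP-Cdk7cKO 2, 3 or 4. Lif and Cdkn2b were called in every fit without 1 library. The trophic factor and patterning genes that define the repair state in adult nerve were close to absent in both groups: Shh, Olig1, Bdnf, Artn and Il6 did not reach the count filter, with means of at most 0.445 CPM, and Gdnf measured 0.45 and 0.46 CPM. Of these calls among the 33 genes, 1 rise (Ccl2) and 1 fall (Cdh19) passed with Xist as a covariate and 0 passed in the female libraries alone or with the muscle markers as a covariate.

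Most of the members' known partners did not pass the test. Of 66 tested partner genes 6 rose and 6 fell (18.2% called), beside 11.7% of all tested genes. In the Jun pathway, Junb, a family member that competes with Jun, rose from 9.20 ± 0.95 to 13.9 ± 0.60 CPM (0.59 ± 0.09, adjusted p = 0.00266) while Jun fell, and Map2k7, a kinase upstream of the Jun kinases, fell slightly (-0.16). Fosl1, which was named after its values were seen and was under the count filter, had 3, 3, 0 and 1 counts in Ctrl 1 to 4 and 16, 14, 7 and 17 in CNP-Cdk7cKO 1 to 4, and was called higher when no count filter was applied. For Ngfr, its co-receptor Sort1 fell from 183 ± 3.99 to 143 ± 5.68 CPM (-0.36). The neurotrophin receptor gene Ntrk3 (-0.44) and the sheddase gene Adam17 (-0.23) fell too. Of the 7 tested partners of Ngfr 0 rose and 3 fell, beside 5.07% and 6.6% of all tested genes.

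For Tnc, 0 of 9 tested relatives and receptors passed. Among them, the relative Tnxb measured 533 and 535 CPM and the integrin gene Itgb1 615 and 603 CPM in Ctrl and CNP-Cdk7cKO. For Igfbp2, the binding protein genes Igfbp3 (97.6 ± 12.6 to 136 ± 17.5 CPM, 0.48) and Igfbp7 (0.19) rose and the insulin receptor gene Insr fell (-0.25), among 10 tested. For Runx2, the phosphatase gene Alpl rose (0.61), with overlapping groups, and the other 6 tested genes did not pass. Beside Gap43 and Gfap, Marcksl1 (0.33), the lamin gene Lmna (0.29) and Nes, counted above among the immature markers, rose and Marcks fell (-0.30). None of the 6 tested partners of Ncam1, such as the growth factor receptor gene Fgfr1 (151 and 155 CPM) and the sialidase gene Neu1 (39.2 and 42.9 CPM), passed, nor did any of 14 beside Sox2 and Id2, such as the dimer partner Tcf3 (121 and 131 CPM) and the receptor gene Bmpr1a (69.5 and 61.2 CPM). With Xist as a covariate, 2 of these 12 partner calls passed, the falls of Ntrk3 and Sort1, and in the female libraries alone 0 did.

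**Figure D4:**
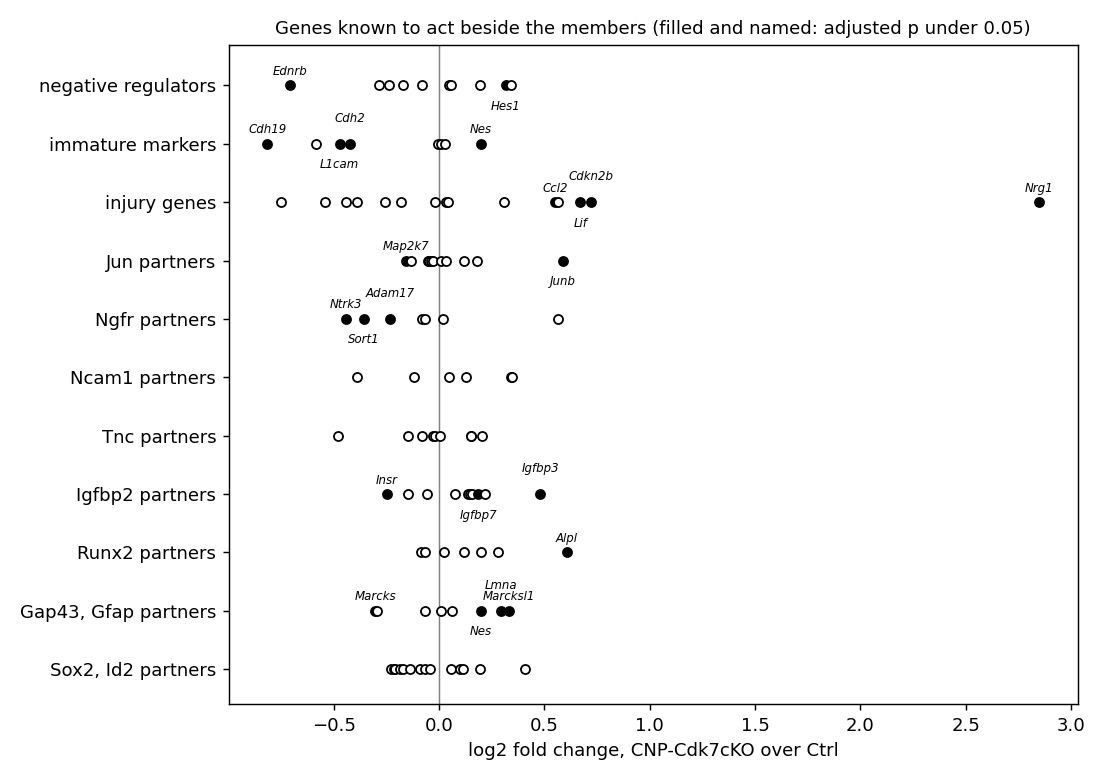
Log2 fold change, CNP-Cdk7cKO over Ctrl, of the tested genes known to act beside the members, by list, with filled and named points for an adjusted p under 0.05. The injury genes that passed all lie to the right of 0, and the Ngfr partners that passed all lie to the left. The Tnc, Ncam1, Sox2 and Id2 partners hold open points only. Of all tested genes 5.07% passed as higher and 6.6% as lower. Nrg1, among the injury genes, reached the count filter only through the CNP-Cdk7cKO libraries, so its point is a description.

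The 3 members that were called differed in how firmly the libraries held the call. Tnc passed in all 8 fits without 1 library, Igfbp2 in all 8, and Jun in 3. The counts behind the calls were ample, with at least 810 for Tnc, 246 for Igfbp2 and 1489 for Jun in any library, and the spread between libraries of a group was larger than counting alone gives for all 3.

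**Figure D5:**
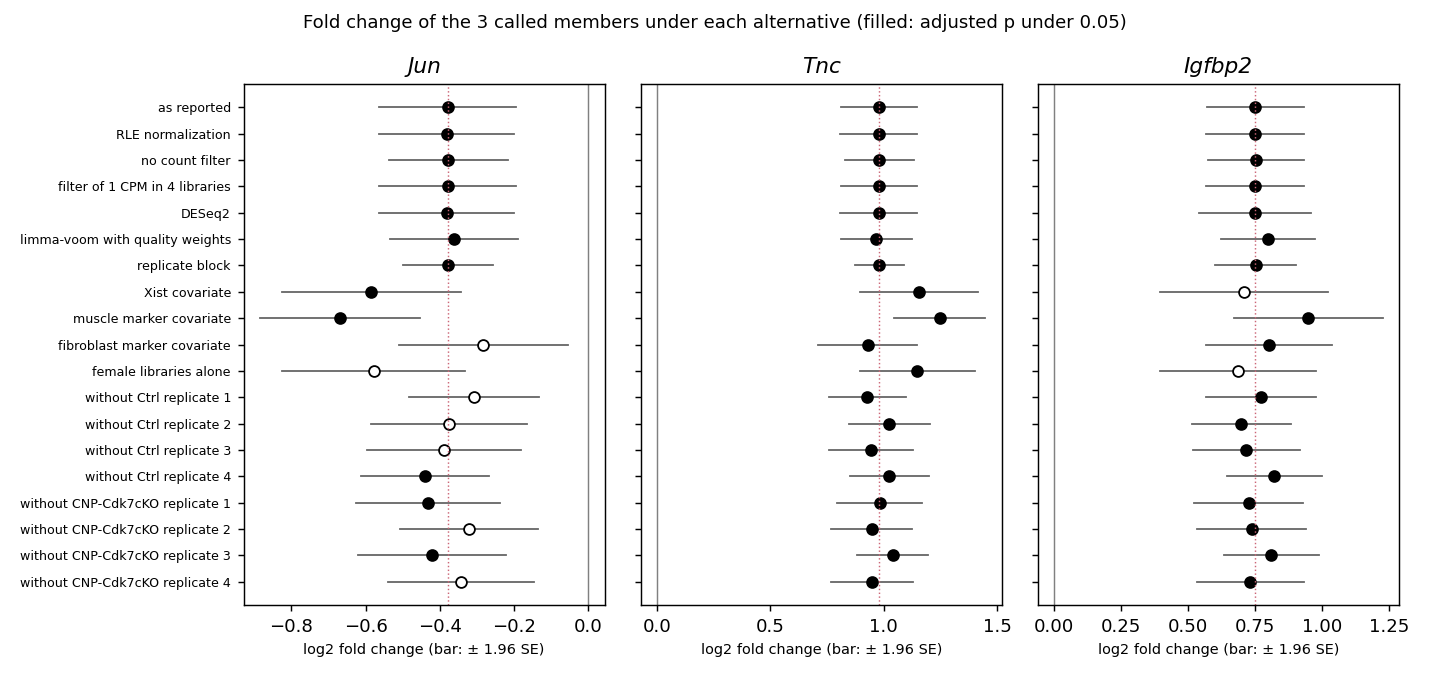
Log2 fold change of Jun, Tnc and Igfbp2 under each way of processing the data, with bars for the 95% interval from the SE and filled points for an adjusted p under 0.05. The points of Tnc are all filled, Igfbp2 has 2 open points, Jun has 7, and no estimate crosses 0.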

How the data were processed

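RNA-seq of whole sciatic nerve was analysed in 8 libraries, 4 per genotype. The authors deposited 1 table of estimated counts per gene. STAR, Salmon and the GRCm38 build are named per the submitters' processing notes, without versions or roles. Of the values 8.29% were not whole, and they were rounded before testing. Depth was 16897242 to 21527891 estimated counts per library, which leaves a counting error of 14.2% of the mean for Runx2 in Ctrl and 8.47% or less for the other tested members. Replicates differed beyond counting noise, so each was kept as its own sample.

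Genes with at least enough counts by edgeR's filterByExpr (minimum count 10, total 15) were kept (15056). CPM were computed with TMM scaling. The main test was edgeR 4.0.16's quasi-likelihood test (R 4.3.3) of CNP-Cdk7cKO against Ctrl with Benjamini-Hochberg adjustment, checked on simulated data. In that simulation it called 36% of planted 1.3-fold changes, 66% of 1.5-fold changes and 93.6% of 2-fold changes. Small changes can therefore be missed. SE is the log2 fold change over the root of the F statistic. Ratios were compared by exact permutation. Alternatives were RLE scaling, other filters, DESeq2 1.42.0, limma-voom 3.58.1, the replicate number as a block, covariates for Xist, muscle or fibroblast markers, the 5 libraries with Xist transcripts alone, Prx as denominator, and leaving out each library.

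The members and lists were chosen with earlier results of these data known, and 3 genes of the lists are not reported here and were left out of the list counts. All members are named, and from each list up to 4 called genes with the smallest p, or the 2 most abundant where none was called. Coordinates are from GENCODE M21 on GRCm38. Promoters of 8 members were matched by symbol in the RefSeq table. The 95% intervals, from the SE, assume a normal error.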

Additional observations from a re-analysis of the deposited data

Results flagged for a closer look

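Within a group of 4 libraries, 3 values stood far from the other 3 by Dixon's criterion. There were 20 such groups, and chance flags about 1 in 20. Runx2 was at 3.10 CPM in CNP-Cdk7cKO 1, with 2.29 to 2.42 CPM in the other knockout libraries. Gap43 was at 5.75 CPM in CNP-Cdk7cKO 2, with 7.24 to 7.48 CPM in the others. Igfbp2 was at 21.2 CPM in CNP-Cdk7cKO 3, with 25.0 to 25.6 CPM in the others, and remained above every Ctrl library.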

How the results depend on the processing

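Tnc passed under all 18 alternatives, Igfbp2 under 16 and Jun under 11, with 1 direction each. With Xist as a covariate, 1 member rose, and 76 genes rose and 167 fell over all tested genes. Of the other immature and repair genes 1 rose and 1 fell, and of the partners 0 rose and 2 fell. With the muscle covariate these counts were 116 and 165 over all genes, 0 and 0 for the other genes, and 0 and 2 for the partners. With the fibroblast covariate they were 406 and 583, 4 and 2, and 3 and 2, and 0 members fell. In the female libraries alone they were 37 and 77, 0 and 0, and 0 and 0, and 1 member rose and 0 fell. The covariate fits have fewer degrees of freedom, the muscle covariate did not overlap between the genotypes, and the female fit has fewer libraries. The replicate block also has fewer degrees of freedom, with 682 genes higher and 926 lower. Why the counts differed between these alternatives was not tested.

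Leaving out 1 library gave 470 to 655 higher and 653 to 860 lower genes, against 763 and 994. The lowest counts came without Ctrl 2, and 500 rose without Ctrl 3. It gave 0 to 2 members lower, 3 to 5 other genes higher (fewest without Ctrl 3) and 3 to 5 partners lower. The sign of Runx2 turned with limma-voom (0.011), the muscle (0.005) and fibroblast (0.045) covariates and without 1 library (-0.139 to 0.023). The sign of Gap43 turned with Xist as a covariate (0.017), in the female libraries alone (0.013) and without 1 library (-0.226 to 0.019). The Sox2 to Egr2 ratio spanned -0.24 to 0.007 and the Id2 to Egr2 ratio -0.25 to 0.002 without 1 library. With Prx as denominator the Jun ratio differed by -0.43 (exact permutation p = 0.0286).

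Same-numbered libraries deviated together only weakly (r of 0.04, 0.08, 0.13 and 0.01, against -0.16 to 0.17 for other pairs). Not every library correlated best with its own number. Correlations this small cannot tell whether same-numbered libraries share more than a number. With the replicate block, 682 genes rose and 926 fell, 2 members rose and 1 fell, and Jun had an edgeR adjusted p of 0.00867. Depth limits Gfap and Runx2 most.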
